A study of Homo sapiens with 82 samples.

Results

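The genes described here are 10 targets and antagonists of Wnt signaling: AXIN2, LGR5, ASCL2, NKD1, NKD2, DKK1, RNF43, ZNRF3, WNT11 and NOTUM. They were chosen by symbol, with earlier results of these data known, and each of the 10 symbols had 1 row among the 51838 genes of the count tables. A count among them that exceeds the share of all genes is therefore a description and not a test. The RNA-seq libraries came from HT29 cells, a human colorectal adenocarcinoma line obtained from ATCC, grown before treatment in phenol-red free medium with charcoal-treated serum. Cells received 10 μM GW3965 or T0901317, which are agonists of the liver X receptors (LXRs), 10 μM rosiglitazone, an agonist of PPARG, or the solvent DMSO alone, for 24 or 48 h. This gave 8 groups of 4 libraries, 32 in all, and all groups share the solvent, the line and the medium. HT29 is 1 line. Each treatment was made in quadruplicate, but no source says whether the 4 were separate cultures, so p-values measure only the spread between these libraries, which may be technical.

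Wnt ligands bind Frizzled and LRP receptors at the cell surface, which stops the destruction complex from degrading β-catenin, and β-catenin then joins TCF/LEF factors to switch on target genes. Many of those targets feed back on the pathway. AXIN2 is a scaffold of the destruction complex, NKD1 and NKD2 act on Dishevelled, RNF43 and ZNRF3 remove Frizzled from the membrane, and DKK1 and NOTUM act outside the cell on receptor and ligand. In the colon the pathway maintains crypt stem cells, which LGR5 and ASCL2 mark, and colorectal cancer lines such as HT29 carry a truncated APC that keeps it active.

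Promoter sequence, the 250 bases upstream of the annotated start in RefSeq on GRCh38.p14, was matched for 3 of the 10 genes (NKD2, DKK1 and RNF43). The windows of DKK1 and NKD2 are shown because these genes moved in opposite directions with both LXR agonists at 48 h. DKK1 lies at chr10:52314031-52314280 on the plus strand, and NKD2 at chr5:1008552-1008801 on the plus strand. Capitals mark matches to 4 spellings of the TCF/LEF motif (CTTTG followed by AA, AT, TT or TA, on both strands).
DKK1: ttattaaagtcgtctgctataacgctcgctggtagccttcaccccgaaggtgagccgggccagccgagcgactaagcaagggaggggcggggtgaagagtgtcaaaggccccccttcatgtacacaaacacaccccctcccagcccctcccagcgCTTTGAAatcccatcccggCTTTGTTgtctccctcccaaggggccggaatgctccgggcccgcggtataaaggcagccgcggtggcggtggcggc
NKD2: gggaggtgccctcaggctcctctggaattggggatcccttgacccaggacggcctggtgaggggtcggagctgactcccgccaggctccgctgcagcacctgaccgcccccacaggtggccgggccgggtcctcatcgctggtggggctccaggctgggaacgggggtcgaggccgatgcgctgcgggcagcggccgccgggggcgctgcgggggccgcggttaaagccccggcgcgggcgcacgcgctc
The DKK1 window held 2 matches, at -95 and -76 from the start, and its GC content was 62.8%. At least 1 match was found in 12% of 35116 promoter windows, and 2 or more in 1.21%. The NKD2 window, with a GC content of 75.6%, held none of these letters, nor did the windows of RNF43. Spaced repeats of AGGTCA, of the kind that LXRs and PPARG bind with their partner RXR, were searched on both strands with 4 bases of any letter between the copies (LXR) or 1 (PPARG). They occurred in 0.0142% and 0.0171% of all windows and in none of the matched genes' windows. A match is a description of the letters and not evidence of binding.

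Total counts per library ran from 21044798 to 51332656 at 24 h and from 32312041 to 50938082 at 48 h. All 11 markers of colon epithelium were above 0 in every library, with summed levels of 15560 to 23570 CPM (a gene's count scaled to a fixed library total). The 5 immune markers summed to 0.500 to 4.10 CPM. That sum was 0.500 to 0.904 CPM with DMSO at 48 h, 2.55 to 2.79 CPM with GW3965 and 3.29 to 4.10 CPM with T0901317. PTPRC was at 0 in 25 of the 32 libraries and CD3E in 31. CD14 was above 0 in every library, at 0.441 to 3.88 CPM, and had the highest median of the 5. The endothelial markers summed to at most 0.586 CPM and those of fibroblasts and muscle to at most 8.92 CPM. Of the latter, COL1A2 was at 0 in 29 libraries and COL1A1 was at 2.44 to 8.455 CPM in every library. ABCA1, an LXR target that exports cholesterol, was higher at 24 h by log2 4.61 with GW3965 and by 3.71 with T0901317, as was ABCG1, another sterol exporter (4.67 and 4.34). ANGPTL4 and PDK4, which are PPAR targets, were higher at 24 h by 5.02 and 2.58 with rosiglitazone. They were not particular to it, since GW3965 raised PDK4 by 1.47 at 24 h and ANGPTL4 and PDK4 by 3.81 and 2.29 at 48 h. T0901317 raised PDK4 by 1.55 at 48 h. ABCG1 was not particular to the LXR agonists, since rosiglitazone raised it by 0.502 at 24 h and 1.22 at 48 h. ABCA1 was lower with rosiglitazone at 24 h (log2 -0.952).

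The 3 agents differed in which of the 10 genes moved and when. Throughout, rose and fell mean an adjusted p below 0.01 in edgeR's quasi-likelihood test over all genes, and levels are CPM scaled over the 32 libraries. CPM are not corrected for gene length, so levels are compared between groups and not between genes. Groups do not overlap where every library of either lies above all libraries of the other. At 48 h such gaps from DMSO were common among all genes, so a gap by itself does not set a gene apart. Rosiglitazone had them then for 33.1% of 22440 genes (6 of the 10), T0901317 for 39.9% (9 of 10) and GW3965 for 45.9% (9 of 10). At 24 h the shares of 21781 genes were 25.6% (7 of 10), 8.55% (2 of 10) and 9.73% (4 of 10), in that order. The 3 agents at a time point were compared with the same 4 DMSO libraries, so their results against DMSO are not independent of each other.

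With GW3965 at 24 h, 2 of the 10 rose (NKD2 and WNT11), beside 1.86% of all 21781 genes tested, and 1 fell (LGR5), beside 0.868%. With T0901317 at 24 h, edgeR called 0 rises and 0 falls, beside 1.33% and 0.119% of all genes. At an unadjusted p under 0.05 the same test gave 1 rise (NKD2) and 2 falls (LGR5 and ASCL2), and DESeq2 called 1 rise (NKD2) and 0 falls. The share of all genes was not taken at that limit or under DESeq2, so these counts have no background beside them. With rosiglitazone at 24 h, NKD2 and WNT11 rose, 2 of 10 beside 5.81%, and AXIN2 and NOTUM fell, 2 of 10 beside 6.52%.

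More of these genes passed the test at 48 h, as did more genes overall. With GW3965, 5 of 10 rose (AXIN2, ASCL2, NKD2, WNT11 and NOTUM), beside 16.1% of 22470 genes, and 2 fell (DKK1 and ZNRF3), beside 17.5%. T0901317 gave 5 rises (AXIN2, LGR5, ASCL2, NKD2 and WNT11), beside 14%, and 3 falls (DKK1, RNF43 and NOTUM), beside 16.1%. Rosiglitazone gave 3 rises (NKD2, RNF43 and WNT11), beside 12.3%, and 3 falls (AXIN2, NKD1 and NOTUM), beside 13.1%. NKD2 and WNT11 rose with all 3 agents at 48 h, and AXIN2 rose with both LXR agonists and fell with rosiglitazone.

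**Figure D1:**
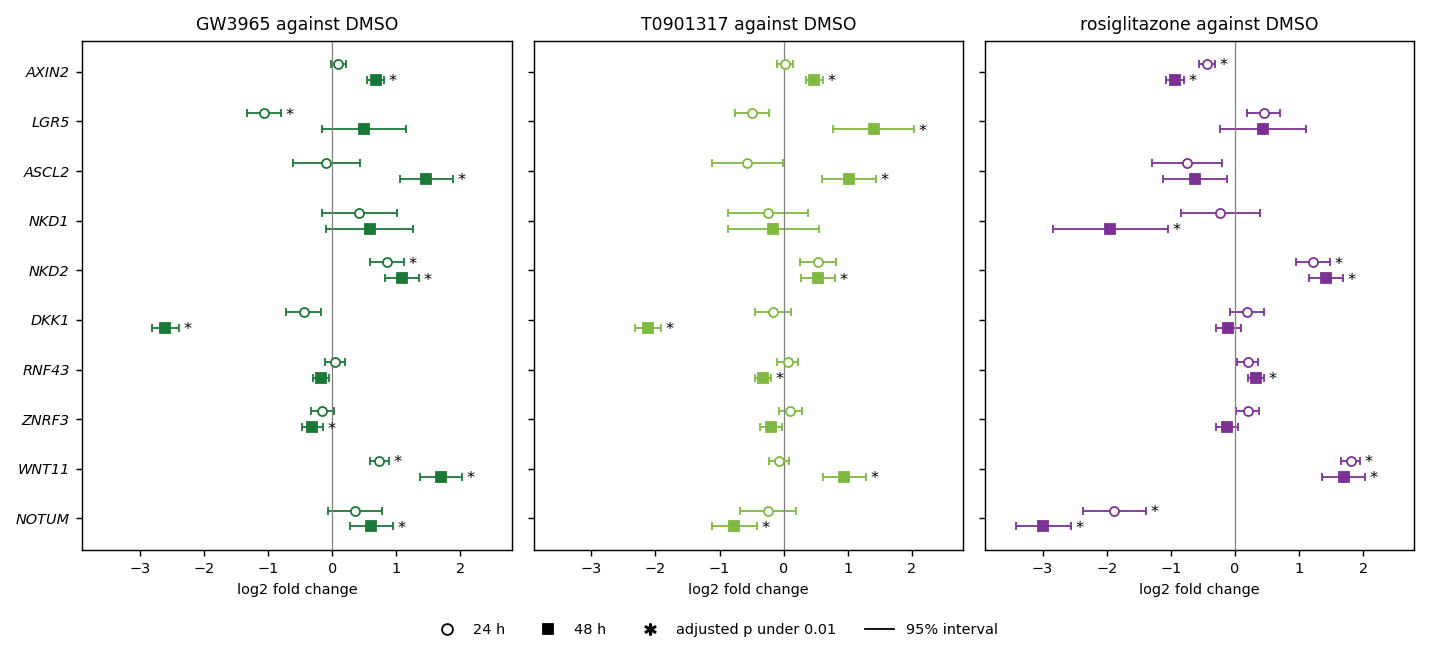
Log2 fold change against DMSO (horizontal axis) of the 10 genes with each agent at 24 and 48 h, with open circles for 24 h, filled squares for 48 h, bars for 95% intervals and a star where the adjusted p was below 0.01. DKK1 with GW3965 at 48 h (-2.61) and NOTUM with rosiglitazone at 48 h (-2.99) lie farthest below 0, and WNT11 with rosiglitazone at 24 h (1.81) farthest above it.

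The solvent controls themselves changed between the time points. From 24 to 48 h in DMSO, DKK1 rose 3.24-fold (log2 1.70 ± 0.12, SE, adjusted p = 6.93e-14), 1 of 10 beside 19.7% of 23140 genes. WNT11 fell 3.84-fold (adjusted p = 9.96e-14), LGR5 3.25-fold (adjusted p = 9.55e-07), ASCL2 2.23-fold (adjusted p = 0.000162) and AXIN2 1.61-fold (adjusted p = 2.14e-11), 4 of 10 beside 18.9%. NKD1, NKD2, RNF43, ZNRF3 and NOTUM had log2 differences between -0.13 and 0.18 and did not pass the test. The 2 time points are separate count tables, and the hour and the table cannot be told apart.

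**Figure D2:**
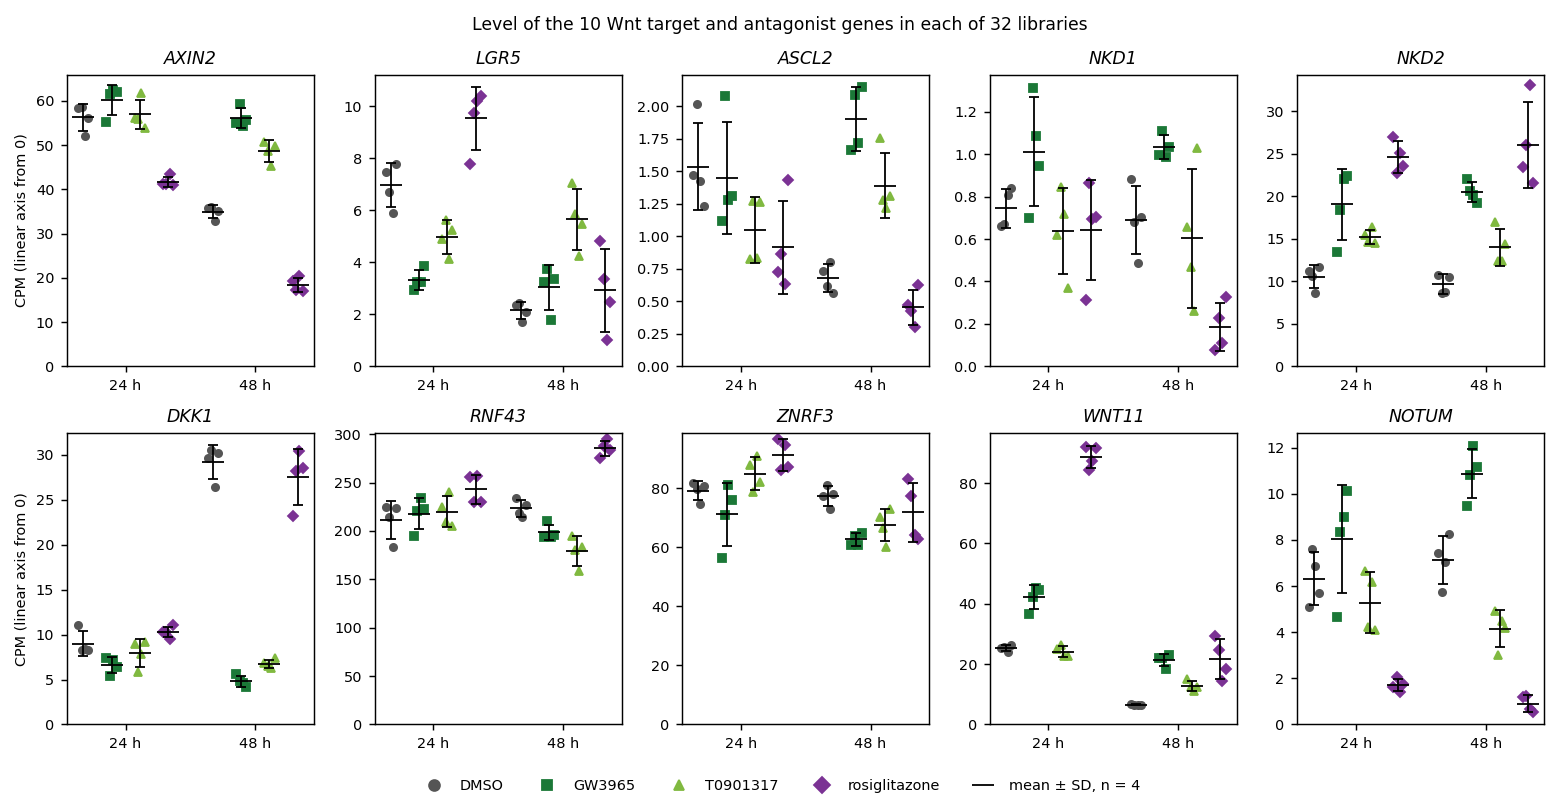
Level of each gene in CPM (vertical axis) in every library of the 8 groups, with points for libraries and black bars for the mean ± SD (n = 4). AXIN2 with rosiglitazone at 48 h (17.0 to 20.4 CPM) and DKK1 with GW3965 at 48 h (4.15 to 5.65 CPM) sit below every library of the matched DMSO group.

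AXIN2 (ENSG00000168646.7), the destruction complex scaffold widely used as a readout of β-catenin activity, ran in opposite directions with the 2 kinds of agonist at 48 h. In DMSO at 48 h it stood at 35.9, 35.9, 32.8 and 35.1 CPM. With GW3965 it stood at 54.9, 59.3, 54.4 and 55.7 CPM, and with T0901317 at 50.8, 48.6, 45.3 and 49.9 CPM. Rosiglitazone gave 19.2, 17.3, 20.4 and 17.0 CPM. All 8 LXR agonist libraries were above all DMSO libraries and all 4 rosiglitazone libraries were below them. The log2 fold changes were 0.68 ± 0.06 (SE, n = 4, adjusted p = 5.66e-08) with GW3965, 0.48 ± 0.06 (adjusted p = 5.1e-06) with T0901317 and -0.94 ± 0.07 (adjusted p = 1.94e-09) with rosiglitazone. At 24 h the DMSO libraries held 58.4, 58.5, 52.0 and 56.1 CPM, and rosiglitazone, at 41.1, 41.1, 43.4 and 41.0 CPM, was already below them (log2 -0.44 ± 0.06, adjusted p = 2.26e-05). GW3965 and T0901317 had means of 60.2 ± 3.40 and 56.9 ± 3.34 CPM (SD, n = 4) at 24 h and overlapped DMSO (log2 0.10, interval -0.03 to 0.22, and 0.02, interval -0.10 to 0.14). The GW3965 mean at 48 h, 56.1 CPM, was next to the 24 h DMSO mean of 56.3 CPM and did not differ from it in the fit of all 32 libraries (adjusted p = 0.958).

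LGR5 (ENSG00000139292.7), a receptor for R-spondins and a marker of crypt stem cells, had a response that differed between the hours with both LXR agonists. At 24 h it stood at 7.48, 6.71, 5.89 and 7.77 CPM in DMSO and at 2.95, 3.23, 3.23 and 3.86 CPM with GW3965, a fall of 2.10-fold (log2 -1.07 ± 0.13, adjusted p = 1.3e-05) with no overlap. T0901317 gave 4.89, 5.64, 4.11 and 5.26 CPM, also below every DMSO library, at log2 -0.49 (adjusted p = 0.0429, not below 0.01). Rosiglitazone gave 7.78, 9.75, 10.2 and 10.4 CPM, all above DMSO, at log2 0.45 (adjusted p = 0.0119, and 0.00301 to 0.0479 over the alternatives). At 48 h the DMSO level was 2.35, 2.45, 1.71 and 2.09 CPM. T0901317, at 7.06, 5.87, 4.23 and 5.48 CPM, was above all of these (log2 1.40 ± 0.30, adjusted p = 0.000949). GW3965 at 48 h, 3.25, 3.74, 1.78 and 3.37 CPM, overlapped DMSO (log2 0.49, interval -0.16 to 1.15, adjusted p = 0.214). The rosiglitazone libraries at 48 h spread from 1.01 (replicate 3) to 4.84 CPM (replicate 1). Their log2 difference of 0.43 became 0.06 without replicate 1 and 0.73 without replicate 3, and passed the test in neither case.

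ASCL2 (ENSG00000183734.4), a transcription factor of crypt stem cells, was low, at 11 to 110 counts per library. It had 0.735, 0.620, 0.805 and 0.565 CPM in DMSO at 48 h. With GW3965 it had 1.66, 2.09, 1.72 and 2.14 CPM and with T0901317 1.76, 1.28, 1.22 and 1.31 CPM. Both LXR agonist groups were above every DMSO library. Against the DMSO group ASCL2 rose 2.76-fold with GW3965 (log2 1.47 ± 0.20, adjusted p = 5.68e-06) and 2.03-fold with T0901317 (log2 1.02 ± 0.20, adjusted p = 0.000378). Rosiglitazone gave 0.300 to 0.622 CPM, with a log2 difference of -0.62 that missed the threshold (adjusted p = 0.0472). At 24 h no agent passed it, and the log2 differences were -0.09 with GW3965, -0.56 with T0901317 and -0.75 with rosiglitazone (adjusted p = 0.0505, and 0.00945 without rosiglitazone replicate 4).

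NKD2 (ENSG00000145506.9), a Dishevelled-binding inhibitor, had a higher mean in every treated group than in DMSO at the same hour. The 48 h DMSO libraries held 10.8, 8.65, 8.69 and 10.5 CPM, and those of rosiglitazone 23.5, 26.0, 33.1 and 21.6 CPM. GW3965 gave 22.1, 20.6, 20.2 and 19.2 CPM, and T0901317 16.9, 12.4, 12.3 and 14.4 CPM. None of the 12 treated libraries overlapped DMSO. The rises were 2.67-fold with rosiglitazone (log2 1.41 ± 0.13, adjusted p = 5.44e-08), 2.12-fold with GW3965 (log2 1.08 ± 0.13, adjusted p = 9.45e-07) and 1.46-fold with T0901317 (log2 0.54 ± 0.13, adjusted p = 0.00188). The T0901317 call was lost, at an adjusted p of 0.01 to 0.0118, without DMSO replicate 2 or 3 or T0901317 replicate 1. At 24 h, DMSO had 11.2, 10.7, 8.62 and 11.6 CPM and rosiglitazone 26.98, 22.7, 25.1 and 23.6 CPM (log2 1.22 ± 0.13, adjusted p = 9.68e-07). GW3965 had 13.5, 18.3, 22.04 and 22.3 CPM (log2 0.85 ± 0.13, adjusted p = 0.000221). Its replicate 1 was the lowest of the group, and without it the log2 fold change was 0.99. T0901317 at 24 h gave 14.5 to 16.3 CPM, above all DMSO libraries, at log2 0.54 (adjusted p = 0.0298, and 0.0043 to 0.12 over the alternatives).

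NKD1 (ENSG00000140807.3), its paralog, was close to the limit of these libraries. Its counts at 48 h were 30, 23, 20 and 25 in DMSO and 3, 7, 4 and 10 with rosiglitazone, or 0.488 to 0.882 CPM against 0.0785 to 0.327 CPM. The groups did not overlap, and the fall was 3.85-fold (log2 -1.94 ± 0.43, adjusted p = 0.00127). GW3965 at 48 h gave 0.986 to 1.11 CPM (log2 0.58, adjusted p = 0.157) and T0901317 0.262 to 1.03 CPM (log2 -0.16, adjusted p = 0.732). No agent passed the test at 24 h, where the log2 differences ran from -0.24 to 0.42. With rosiglitazone at 48 h, then, NKD2 rose and NKD1 fell.

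RNF43 (ENSG00000108375.7) and ZNRF3 (ENSG00000183579.10), the membrane ubiquitin ligases that clear Frizzled, differed from DMSO by at most 1.26-fold in every group. At 24 h neither passed the test with any agent. All rosiglitazone libraries were above DMSO then, for RNF43 at 230 to 257 against 183 to 224 CPM (adjusted p = 0.0756). For ZNRF3 they held 86.1 to 96.8 against 74.5 to 81.6 CPM (adjusted p = 0.112). RNF43 at 48 h had 234, 219, 214 and 227 CPM in DMSO, 276, 288, 295 and 284 CPM with rosiglitazone and 194.5, 180, 159 and 184 CPM with T0901317. The rosiglitazone libraries were all above DMSO (log2 0.33 ± 0.06, adjusted p = 0.000184) and the T0901317 libraries all below it (log2 -0.32 ± 0.06, adjusted p = 0.000227). GW3965 gave 193 to 211 CPM, below every DMSO library, at log2 -0.18 (adjusted p = 0.0203, and 0.00181 to 0.0719 over the alternatives). Scaling by library size alone moved the median of all genes with rosiglitazone to -0.113 at 24 h and -0.191 at 48 h. Under it the RNF43 difference with rosiglitazone at 48 h was 0.15 and its call was lost (adjusted p = 0.0227). ZNRF3 fell with GW3965 at 48 h, from 77.4, 81.0, 73.1 and 78.2 CPM to 60.7, 64.0, 60.9 and 65.0 CPM, with no overlap (log2 -0.31 ± 0.08, adjusted p = 0.00405). That call was lost, at an adjusted p of up to 0.0151, when any of DMSO replicates 1, 2 and 4 or GW3965 replicates 1 and 3 was left out. With T0901317 ZNRF3 had 60.2 to 72.8 CPM (log2 -0.20, adjusted p = 0.0598), and with rosiglitazone 62.8 to 83.1 CPM, overlapping DMSO (log2 -0.13, adjusted p = 0.243, and -0.30 with adjusted p = 0.00609 with library size alone).

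DKK1 (ENSG00000107984.5), the secreted inhibitor that binds the LRP co-receptors and whose promoter letters are printed above, had the largest difference between the LXR agonists and DMSO among the 10 genes. In DMSO at 48 h it stood at 29.7, 30.5, 26.4 and 30.2 CPM. GW3965 gave 5.65, 4.88, 4.59 and 4.15 CPM and T0901317 6.79, 6.45, 6.32 and 7.39 CPM. All 8 LXR agonist libraries were thus below the lowest DMSO library. Against the DMSO group DKK1 fell 6.09-fold with GW3965 (log2 -2.61 ± 0.10, adjusted p = 3.53e-13) and 4.32-fold with T0901317 (log2 -2.11 ± 0.10, adjusted p = 5.06e-12). Rosiglitazone gave 23.1, 28.2, 30.4 and 28.6 CPM and overlapped DMSO (log2 -0.10, interval -0.29 to 0.09). At 24 h the DMSO level was 11.1, 8.24, 8.38 and 8.25 CPM. GW3965, at 7.37, 5.42, 7.22 and 6.39 CPM, was below all 4 but did not pass the test (log2 -0.45, adjusted p = 0.0575). T0901317 at 5.78 to 9.16 CPM and rosiglitazone at 9.54 to 11.01 CPM overlapped DMSO. DKK1 thus rose from 24 to 48 h in DMSO, and also with rosiglitazone (means of 10.3 and 27.6 CPM). It fell with GW3965, from a mean of 6.60 to 4.82 CPM (adjusted p = 0.00316 in the fit of all 32 libraries). With T0901317 (means of 7.94 and 6.74 CPM) the change did not pass the test.

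NOTUM (ENSG00000185269.7), a secreted esterase that removes the lipid Wnt ligands need, fell with rosiglitazone at both hours. At 48 h it stood at 7.43, 5.75, 7.03 and 8.25 CPM in DMSO and at 1.18, 1.23, 0.681 and 0.524 CPM with rosiglitazone. The groups did not overlap, and the fall was 7.93-fold (log2 -2.99 ± 0.21, adjusted p = 1.52e-09). At 24 h the levels were 5.08, 7.60, 6.89 and 5.69 CPM in DMSO and 1.61, 2.08, 1.42 and 1.74 CPM with rosiglitazone, a fall of 3.69-fold (log2 -1.88 ± 0.23, adjusted p = 7.24e-06), again with no overlap. Both LXR agonists overlapped DMSO at 24 h (adjusted p = 0.453 with GW3965 and 0.746 with T0901317). The LXR agonists went opposite ways at 48 h. GW3965 gave 9.48, 10.8, 12.1 and 11.2 CPM, all above DMSO (log2 0.61 ± 0.16, adjusted p = 0.0041), and T0901317 4.92, 3.02, 4.47 and 4.20 CPM, all below it (log2 -0.77 ± 0.17, adjusted p = 0.000916). The GW3965 call was lost, at an adjusted p of up to 0.0192, without DMSO replicate 2 or 3 or GW3965 replicate 3 or 4.

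WNT11 (ENSG00000085741.6), a Wnt ligand known mainly for signaling without β-catenin, had its highest level with rosiglitazone at 24 h. DMSO libraries at 24 h held 25.2, 25.8, 23.9 and 26.3 CPM and rosiglitazone libraries 91.8, 84.2, 87.4 and 91.6 CPM. GW3965 gave 36.6, 42.2, 45.3 and 44.6 CPM and T0901317 25.1, 26.2, 22.6 and 22.5 CPM. Rosiglitazone raised it 3.50-fold (log2 1.81 ± 0.07, adjusted p = 1.12e-12) and GW3965 1.66-fold (log2 0.73 ± 0.07, adjusted p = 7.82e-07), while T0901317 overlapped DMSO (log2 -0.07, interval -0.22 to 0.08). At 48 h DMSO held 6.91, 6.49, 6.47 and 6.50 CPM. All 12 treated libraries were above that, at 22.1, 22.1, 18.5 and 23.1 CPM with GW3965, 14.9, 12.4, 10.96 and 12.5 CPM with T0901317 and 29.2, 24.6, 14.5 and 18.4 CPM with rosiglitazone. The log2 fold changes were 1.70 ± 0.16 (adjusted p = 6.12e-08), 0.95 ± 0.16 (adjusted p = 8.25e-05) and 1.70 ± 0.16 (adjusted p = 1.11e-07). The rosiglitazone value ran from 1.52 without replicate 1 to 1.85 without replicate 3.

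**Figure D3:**
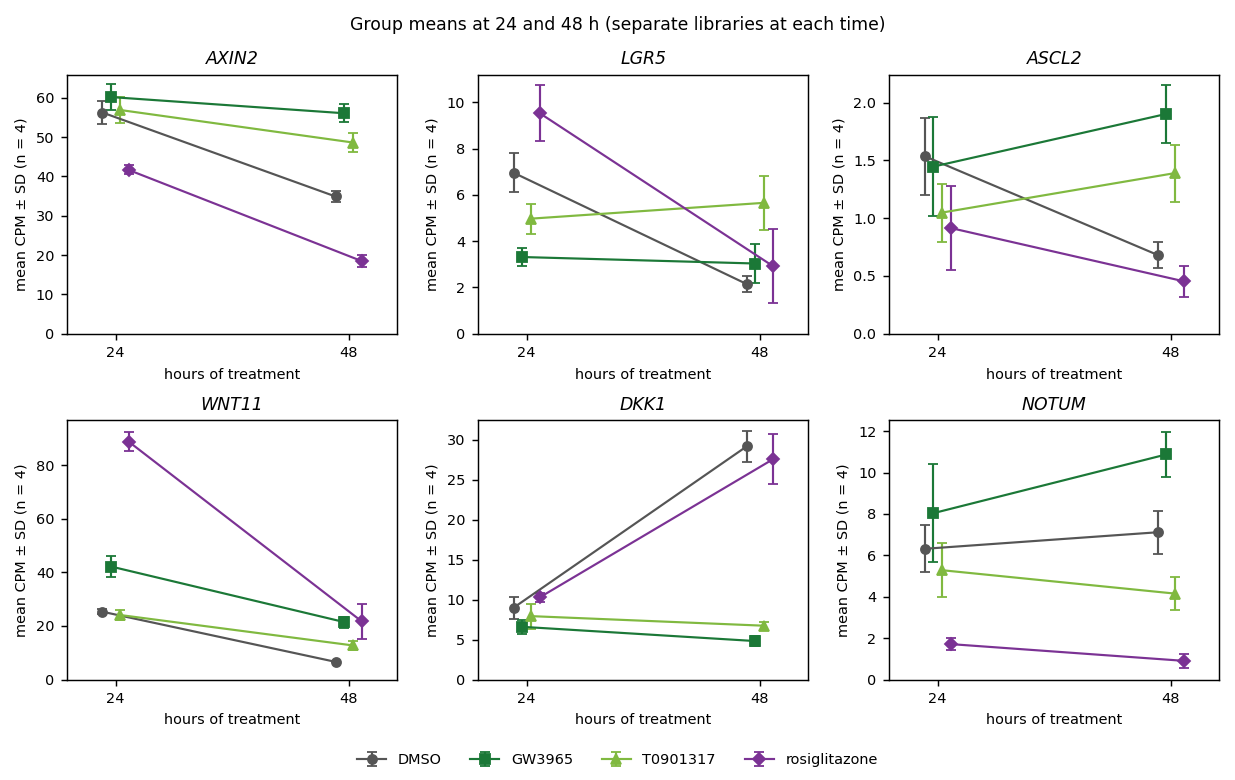
Mean level in CPM (vertical axis, error bars are SD, n = 4) of AXIN2, LGR5, ASCL2, WNT11, DKK1 and NOTUM at 24 and 48 h (horizontal axis), with 1 line for each agent and for DMSO. DKK1 rose in DMSO from 8.98 to 29.2 CPM and stood at 4.82 CPM with GW3965 at 48 h, and AXIN2 fell in DMSO from 56.3 to 34.9 CPM while GW3965 held 56.1 CPM at 48 h.

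The change of each response between the hours was tested as an interaction in the fit of all 32 libraries. The GW3965 response differed between 24 and 48 h for 5 of 10 genes, beside 21.6% of 23140 genes. The log2 response was higher at 48 h for AXIN2 (log2 difference 0.59, adjusted p = 1.7e-06), LGR5 (1.56, adjusted p = 0.000786), ASCL2 (1.56, adjusted p = 0.000319) and WNT11 (0.96, adjusted p = 8.27e-05), and lower for DKK1 (-2.16, adjusted p = 1.52e-11). The T0901317 response differed for 6 of 10, beside 17.4%, which were the same 5 genes in the same directions and RNF43 (-0.38, adjusted p = 0.00316). Both agonists use the same DMSO libraries, so the match is not independent. The same 5 genes were those that changed in DMSO between the hours. Within GW3965, 0 of 10 rose from 24 to 48 h, beside 16.2% of all genes. There 2 fell (DKK1 and WNT11), beside 15.2%. Within T0901317, 0 rose, beside 15.8%, and 4 fell (AXIN2, RNF43, ZNRF3 and WNT11), beside 16.3%. Within rosiglitazone, 2 rose (DKK1 and RNF43), beside 22.7%, and 7 fell, beside 20.9%. The rosiglitazone response differed for 1 of 10 (AXIN2, -0.48, adjusted p = 0.000542), beside 2.45%. NKD1 (-1.70, adjusted p = 0.0471) and NOTUM (-1.09, adjusted p = 0.0481) did not pass the threshold of 0.01, and NOTUM did under DESeq2.

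**Figure D4:**
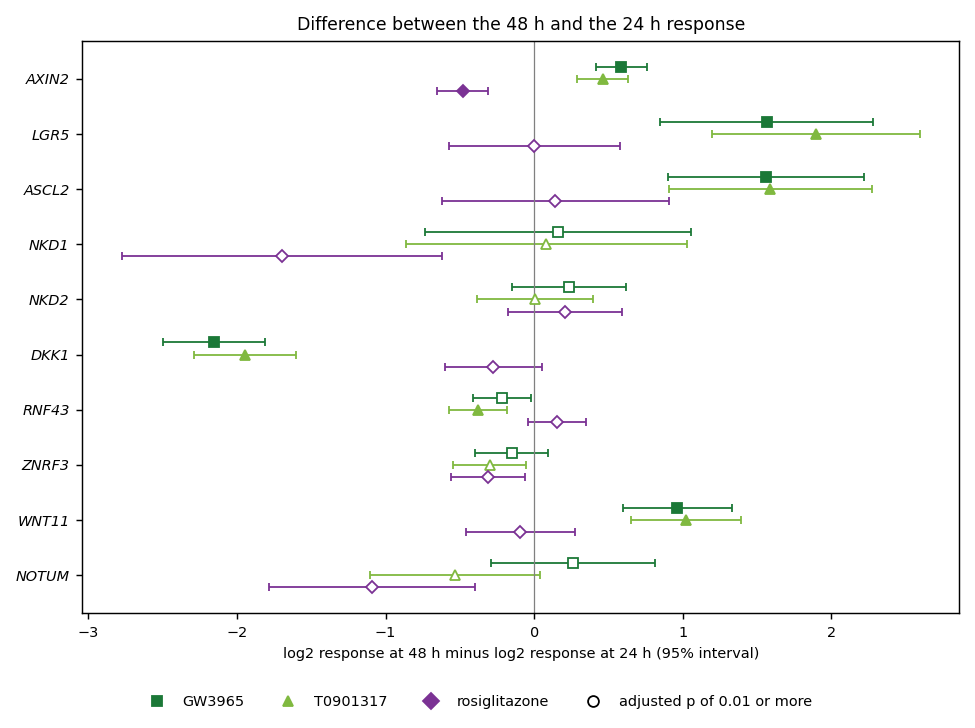
Log2 response at 48 h minus that at 24 h (horizontal axis) for each gene and agent, with 95% intervals, filled where the adjusted p was below 0.01. LGR5, ASCL2 and WNT11 lie above 0 and DKK1 below it for both LXR agonists, and for rosiglitazone AXIN2 alone is filled (-0.48).

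GW3965 and T0901317, both LXR agonists at 10 μM, were compared directly at each hour, as were rosiglitazone and each of them, 6 comparisons in all, each adjusted over all genes. At 24 h GW3965 and T0901317 differed in 1 of 10 genes, WNT11 (log2 0.81 ± 0.07 higher with GW3965, adjusted p = 1.54e-06), beside 0.79% of all genes. LGR5 was lower with GW3965 by a log2 difference of -0.58 (95% interval -0.85 to -0.30) that did not pass (adjusted p = 0.0265, and passed under DESeq2). At 48 h they differed in 4 of 10, beside 8.36%. NOTUM (1.38 ± 0.16, adjusted p = 2.96e-05), WNT11 (0.75 ± 0.15, adjusted p = 0.00204) and NKD2 (0.54 ± 0.12, adjusted p = 0.00453) were higher with GW3965 and DKK1 was lower (-0.49 ± 0.10, adjusted p = 0.00307). Of the genes that did not pass, AXIN2 had an interval of 0.07 to 0.33, LGR5 -1.51 to -0.30, ASCL2 0.07 to 0.82, NKD1 0.08 to 1.42, RNF43 0.02 to 0.27 and ZNRF3 -0.28 to 0.06, so the data do not show that the agonists act alike on them. WNT11 and NOTUM passed without any 1 library of either group, but DKK1 and NKD2 both lost the call, leaving 2 genes, without GW3965 replicate 2, GW3965 replicate 3 or T0901317 replicate 4.

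Rosiglitazone at 24 h differed from GW3965 in 6 of 10 genes, beside 10.7% of all genes. LGR5 (log2 1.51), WNT11 (1.07), DKK1 (0.64) and ZNRF3 (0.36) were higher with rosiglitazone and AXIN2 (-0.53) and NOTUM (-2.23) lower, with adjusted p from 1.23e-09 for WNT11 to 0.00609 for ZNRF3. From T0901317 at 24 h it differed in 5 of 10, beside 14.1%, with WNT11 (1.88), LGR5 (0.94) and NKD2 (0.68) higher and AXIN2 (-0.46) and NOTUM (-1.65) lower. At 48 h rosiglitazone differed from GW3965 in 6 of 10, beside 45% of all genes, with DKK1 (2.50) and RNF43 (0.51) higher and AXIN2 (-1.62), ASCL2 (-2.09), NKD1 (-2.53) and NOTUM (-3.59) lower. From T0901317 at 48 h it differed in 9 of 10, beside 48.3%, with DKK1 (2.01), NKD2 (0.87), WNT11 (0.75) and RNF43 (0.65) higher and AXIN2 (-1.42), LGR5 (-0.97), ASCL2 (-1.65), NKD1 (-1.78) and NOTUM (-2.22) lower. The LGR5 call (adjusted p = 0.00835) was kept without rosiglitazone replicate 1 or T0901317 replicate 3 and lost without any 1 of the other 6 libraries. WNT11 at 48 h did not differ between rosiglitazone and GW3965 beyond error (log2 0.00, interval -0.31 to 0.31).

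The 8 groups were also put in order of their mean level for each gene, and neighbours were compared in the fit of all libraries at an adjusted p below 0.05. Of 70 neighbouring pairs, 15 differed, where over all genes and the 40 pairs of groups concerned 37.3% of tests passed. Neighbours are by construction the closest groups, and groups with no step between them are not shown to be alike. AXIN2 had 4 distinct steps, from rosiglitazone at 48 h (18.5 CPM) through DMSO at 48 h (34.9), rosiglitazone at 24 h (41.7) and T0901317 at 48 h (48.6) to GW3965 at 48 h (56.1), above which DMSO, T0901317 and GW3965 at 24 h did not differ from their neighbours. WNT11 had 4, from DMSO at 48 h (6.59 CPM) to T0901317 at 48 h (12.7), on to a set of 4 groups from 21.4 to 25.3 CPM, then GW3965 at 24 h (42.2) and rosiglitazone at 24 h (88.8). DKK1 had 2 steps, with GW3965 at 48 h (4.82 CPM) below a set from 6.60 to 10.3 CPM, and rosiglitazone and DMSO at 48 h (27.6 and 29.2 CPM) above it. The ends of that set, GW3965 and rosiglitazone at 24 h, differed in their direct comparison. NOTUM had 2 steps, with rosiglitazone at 48 h (0.903 CPM) below rosiglitazone at 24 h (1.71 CPM) and both below the other 6 groups (4.15 to 10.9 CPM). RNF43, NKD1 and NKD2 had 1 step each. For LGR5, ASCL2 and ZNRF3 no neighbours differed in this fit, although their ends did not meet, at 2.15 and 9.54 CPM, 0.453 and 1.90 CPM, and 62.6 and 91.2 CPM. In the fits of 1 time point, 3 of those neighbouring pairs were below 0.05, namely LGR5 with GW3965 and T0901317 at 24 h (adjusted p = 0.0265), LGR5 with DMSO and rosiglitazone at 24 h (adjusted p = 0.0119), and ASCL2 with rosiglitazone and DMSO at 48 h (adjusted p = 0.0472).

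The rest of the pathway was followed in 8 lists of 103 genes outside these 10, of which 67 were tested at 24 h and 70 at 48 h. With GW3965 at 24 h, 1 of 67 rose, beside 1.86% of all genes, and 4 fell, beside 0.868%. LGR6, a relative of LGR5, rose (log2 1.71), and SOSTDC1, a secreted antagonist (-0.66), and EPHB3, an ephrin receptor of the crypt (-0.72), fell. With T0901317 at 24 h, 1 rose, beside 1.33%, and 2 fell, beside 0.119%. The target MMP7, a matrix protease, rose (0.69) and EPHB3 fell (-0.66). With rosiglitazone at 24 h, 6 rose, beside 5.81%, and 17 fell, beside 6.52%. Of 15 other target genes tested, 3 rose, with EPHB2 rising most (1.17), and 9 fell, with the transcription factor PROX1 falling most (-1.77). The secreted antagonist FRZB (-1.63), the receptor FZD4 (-0.91), WLS, which carries Wnt ligands to the surface (-0.59), the coactivator BCL9 (-0.44), TNKS2, a tankyrase that marks Axin for degradation (-0.27), and LGR4 (-0.21) fell, and the corepressor TLE1 (0.96) and the kinase GSK3A (0.38) rose.

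With GW3965 at 48 h, 16 of 70 rose, beside 16.1% of all genes, and 21 fell, beside 17.5%, with a median log2 difference of -0.02 over the lists. With T0901317 12 rose, beside 14%, and 19 fell, beside 16.1% (median -0.15). With rosiglitazone 15 rose, beside 12.3%, and 24 fell, beside 13.1% (median -0.16). Of the 15 genes of signal relay and the destruction complex, 2 rose and 8 fell with GW3965, 0 rose and 6 fell with T0901317, and 6 rose and 3 fell with rosiglitazone.

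The largest rises in a list that both LXR agonists share at 48 h were those of the ligand WNT8B (2.11 with GW3965 and 2.64 with T0901317), LGR6 (2.05 and 1.56), SOSTDC1 (0.91 and 1.51), PORCN, which attaches the lipid to Wnt ligands (0.82 and 0.76), and TCF7, a partner of β-catenin (0.54 and 0.37). WNT8B was near 0, at 0.0416 ± 0.0556 CPM (SD, n = 4) in DMSO and 0.191 ± 0.079 and 0.276 ± 0.0373 CPM with the agonists, and LGR6 was at 0.349 ± 0.145 CPM in DMSO. The shared falls were those of PHLDA1 (-1.69 and -1.75), WNT10A (-0.58 and -0.69), the receptor FZD6 (-0.54 and -0.31) and the corepressor CTBP2 (-0.54 and -0.62). GW3965 also had FZD8 (1.24), the target SP5 (1.05) and APC2 (0.76) as largest rises and the kinase CSNK1A1 (-0.69) as a largest fall, and T0901317 had FZD1 (1.004), MMP7 (0.86) and the scaffold AXIN1 (-0.72). With rosiglitazone EPHB2 (1.26), TLE1 (1.10), DVL1, a Dishevelled (1.02), and FZD7 (0.80) rose. EPHB3 (-2.11), FRZB (-2.04), WNT4 (-1.89), FZD3 (-1.48), TLE2 (-1.40), LGR4 (-0.91), WLS (-0.58) and APC (-0.43) fell, of which FRZB and WNT4 were below 1 CPM on average in every group.

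In DMSO from 24 to 48 h, 20 of 70 pathway genes rose, beside 19.7% of all genes, and 13 fell, beside 18.9%. CLDN1 (1.90), TLE4 (1.29), CSNK1A1 (0.76), WNT10A (0.54), FZD6 (0.40) and WLS (0.35) had the largest rises in their lists. SOSTDC1 (-1.89), FZD8 (-1.504), SP5 (-1.16), WNT7B (-0.89), CTBP1 (-0.48) and LGR4 (-0.37) had the largest falls.

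For each gene, the genes whose log2 level ran most alike over the 32 libraries were named by Pearson's r among about 14507 genes. The libraries fall into 8 groups that share a treatment and hour, so these r are descriptions. AXIN2 ran most like PLCG1 (0.971), ENC1 (0.965) and SSTR1 (0.964) and most unlike ARL14 (-0.979). WNT11 ran most like RP11-619A14.2 (0.986), SLC19A1 (0.970) and ST6GALNAC4 (0.964), and most unlike SAT1 (-0.965). NOTUM ran most like NEURL (0.977), HES6 (0.976) and SPDEF (0.966), and most unlike ANXA10 (-0.951). DKK1 ran most like RASEF (0.956), AHR (0.955) and ZNF146 (0.951), and most unlike LSS (-0.946), and RNF43 most like ABTB2 (0.969), ATN1 (0.963) and ESRP2 (0.963), and most unlike DYNC1I2 (-0.935). For NKD2 the closest were BAI2 (0.911), DTX4 (0.909) and ACOT11 (0.904). For LGR5 they were PLA2G4A (0.887), ZNF488 (0.870) and MPZL2 (0.870), with LAT2 at -0.885. ASCL2 had CST3 (0.882), C14orf159 (0.879) and AP006621.5 (0.874), with SMAD3 at -0.880, and ZNRF3 had XXbac-BPG246D15.9 (0.866), HSPG2 (0.858) and CXCL16 (0.848), with RPL13AP7 at -0.855. NKD1 was below the level limit for this comparison.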

How the data were processed

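Per the submitters' processing notes, paired-end reads of poly(A) RNA were handled with TopHat and Cufflinks on hg19, with no versions given, and the authors deposited 1 table of whole-number counts per gene for each time point. The counting program, its strand setting and the annotation were not given in the sources used here. Each of the 32 RNA-seq libraries was assigned to 1 of 8 groups of 4 by its labels, and no value column was left unmapped. The ChIP-seq peak files were not used, because they carry hg19 positions and gene positions of that build were not in hand.

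Counts were analysed in R 4.3.3 with edgeR 4.0.16 (filterByExpr, TMM scaling and the quasi-likelihood F test, with Benjamini-Hochberg adjustment over all genes). Comparisons between treatments used the 16 libraries of a time point (21781 genes at 24 h, 22470 at 48 h), and those between hours and interactions used all 32 (23140 genes). The biological coefficient of variation was 0.0981, 0.101 and 0.0998. Intervals are 95% and unadjusted, and SEs come from the fit. CPM use TMM over 32 libraries. The study's own cutoff for differential expression adds a fold change of 2. Likeness used log2 CPM with a prior count of 2.

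The 10 genes and the pathway lists were chosen with earlier results of these data known. Of the pathway genes, the text names those with the largest rise or fall in a list among those past an adjusted p of 0.01, and of the alike genes the 3 with the highest and the 1 with the lowest r, except 1 gene that is not reported here. Total counts of 21044798 to 51332656 per library limit NKD1 and ASCL2, where counting error is largest. The scripts were tested on simulated data. Alternatives were DESeq2 1.42.0, its size factors, library size alone, no filter on low counts, only the 8 libraries of the 2 groups, a replicate block, leaving out each library and, for counts of genes, fold limits of 1.5 and 2.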

Additional observations from a re-analysis of the deposited data

Results flagged for a closer look

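The response to an agent differed between 24 and 48 h in 12 of 30 tests of the difference itself. Among all genes, 2.45% passed this test for rosiglitazone, 17.4% for T0901317 and 21.6% for GW3965. Each difference is given as the log2 response at 48 h minus that at 24 h. With GW3965 the differences were 0.59 for AXIN2, 1.56 for LGR5, 1.56 for ASCL2, -2.16 for DKK1 and 0.96 for WNT11. With T0901317 they were 0.46 for AXIN2, 1.89 for LGR5, 1.59 for ASCL2, -1.95 for DKK1, -0.38 for RNF43 and 1.02 for WNT11. With rosiglitazone AXIN2 differed by -0.48. Every agent was set against the same DMSO libraries, so these tests are not independent of each other. The genes found with both LXR agonists (AXIN2, LGR5, ASCL2, DKK1 and WNT11) also changed in DMSO between the hours.

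Of 80 sets of 4 values tested (10 genes in each of 8 groups), 6 held a library far from the other 3, where chance gives about 1 in 20. The genes share the same 32 libraries, so the 80 sets are not independent. For AXIN2 at 24 h the libraries past the limit were GW3965 replicate 1 (55.1 CPM) and rosiglitazone replicate 3 (43.4 CPM). For DKK1 at 24 h the library was DMSO replicate 1 (11.1 CPM). At 48 h they were T0901317 replicate 1 for ASCL2 (1.76 CPM) and GW3965 replicate 2 for RNF43 (210.5 CPM). DMSO replicate 1 at 48 h was past it for WNT11, at 6.91 CPM beside 6.468 to 6.495 CPM in the other 3.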

How the results depend on the processing

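Of 60 comparisons of a gene with DMSO, 28 passed the test. Over all genes the share that passed ran from 1.45% (T0901317 at 24 h) to 33.6% (GW3965 at 48 h). The 60 comparisons share the DMSO libraries of each hour and are not independent. Of the 28, 24 passed under each of the other tools, scalings, filters, fits and left-out libraries run. Limits on the fold change are counted apart, after the exceptions. The exceptions were ZNRF3 and NOTUM with GW3965 at 48 h, NKD2 with T0901317 at 48 h and RNF43 with rosiglitazone at 48 h. The cause was not tested. A fold change of at least 2 left 0 rises with GW3965 at 24 h, beside 0.445% of all genes. It left 1 fall with rosiglitazone at 24 h, beside 1.4%. At 48 h it left 3 rises and 1 fall with GW3965, beside 3.24% and 2.54%. T0901317 at 48 h kept 2 rises and 1 fall, beside 2.8% and 2.59%. At 1.5 the counts were 1 fall with rosiglitazone at 24 h, beside 3.13%, and 1 fall with GW3965 at 48 h, beside 7.78%. T0901317 at 48 h had 3 rises at that limit, beside 6.99%. T0901317 at 24 h gained 1 rise, NKD2, under DESeq2, with no filter on low counts and with only the 8 libraries of the 2 groups. DESeq2 gave 2 genes that differed between GW3965 and T0901317 at 24 h, and 2 whose rosiglitazone response differed between hours. Leaving out 1 library gave 1 to 2 falls with GW3965 at 48 h and 2 to 4 genes that differed between GW3965 and T0901317 at 48 h.

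Signs reversed only for values that had not passed the test. With library size alone, RNF43 with GW3965 at 24 h was -0.0061 and AXIN2 with T0901317 at 24 h was -0.024. Leaving out 1 library, the log2 values at 24 h ran from -0.31 to 0.056 for ASCL2 and -0.021 to 0.095 for RNF43 with GW3965, from -0.022 to 0.045 for AXIN2 and -0.0038 to 0.094 for RNF43 with T0901317, and from -0.41 to 0.013 for NKD1 with rosiglitazone. NKD1 with T0901317 at 48 h ran from -0.56 to 0.080.

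With the replicate block, LGR5 with rosiglitazone at 24 h passed (adjusted p = 0.00978) and no other call on a gene against DMSO changed. The block left 5 rises and 2 falls with GW3965 at 48 h, as without it, and the share of all genes under it was not taken. Deviations of libraries that share a number correlated from -0.103 to 0.172 at 24 h and from -0.0515 to 0.0976 at 48 h, with 2 of 24 such pairs above 0.1 at 24 h and 0 at 48 h. Their median was 0.0148 and 0.0139, against -0.00401 and -0.00608 for pairs with different numbers, and 14 of 32 libraries correlated best with their own number. This is a hint from the data and not from the design, and the numbers were not taken to pair the libraries. Depth limits NKD1 most, at 3 to 10 counts with rosiglitazone at 48 h.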
